A study of Mus musculus with 36 samples.

Results

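The loops described here are those whose first anchor lies on mouse chromosome 11, or on chromosome 6 from 100000000 bases to its end (distal 6), on the mm10 build. A loop is a pair of DNA fragments on 1 chromosome that was listed as in contact by promoter capture Hi-C of neural stem cells (NSCs). The region was chosen by the position of the first anchor alone, and it held 18470 of the 117899 loops in 2 lists: 7051 of 59754 in wildtype (WT) NSCs and 11419 of 58145 in NSCs without the 3 TET enzymes (triple knockout, TKO). Each genotype had 1 capture library, made from NSCs on day 6 of culture at passage 1, crosslinked with 4% paraformaldehyde and sequenced to a stated 170 to 190 M raw read pairs. With 1 library each, the genotype and the library cannot be told apart, and no test was made on loops. RNA-seq of separate samples gave the RNA of the genes at these loops. It covered 3 WT and 2 TKO samples of NSCs, and 3 WT and 2 TKO samples of the embryonic stem cells (ESCs) from which NSCs are made. The cells are male V6.5, a mixed 129/C57BL/6 background, and the ESCs were freed of feeder cells by 45 minutes of preplating. Each TKO line carries a clone code of its own. The WT samples carry numbers only, so whether they are separate lines is not known here, and a WT line below means 1 WT sample. The labels do not say which TKO line the capture library came from.

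Promoter capture Hi-C crosslinks DNA that is close in the nucleus, joins the ends and pulls down fragments that hold promoters, so that a listed loop usually has a promoter at its first anchor and a promoter or a distal element at the other. Such contacts bring enhancers near the genes they act on, although many contacts form without a change in transcription. TET1, TET2 and TET3 oxidize 5-methylcytosine in CpG dinucleotides, the first step of active DNA demethylation, and cells without them gain methylation at many enhancers and promoters. Chromosome 11 of the mouse is rich in genes and carries the Hoxb cluster, a large keratin cluster and Trp53, while distal 6 carries Nanog, Chd4 and the natural killer receptor genes.

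Promoter sequences of 4 genes that recur below are shown first, since TET enzymes act on CpG and these promoters differ in it. Each is the 250 bases before the annotated start, from RefSeq on GRCm38.p6 (mm10), written 5′ to 3′ on the gene's strand, with every CG in capitals. Eif4a1 (minus strand, chr11:69672424-69672673) had the most loops of any first anchor of these stretches, both lists together. Gfap (minus strand, chr11:102897201-102897450) had more loops in TKO and RNA that fell. Among genes with tested RNA, counting loops in either direction, Ccdc47 (minus strand, chr11:106216368-106216617; the table's start lies inside the gene's outer bounds, so part of this stretch is within the gene) had the largest deficit in TKO, and Parp11 (plus strand, chr6:127446590-127446839; the table holds 2 starts) the largest excess on distal 6.
Eif4a1: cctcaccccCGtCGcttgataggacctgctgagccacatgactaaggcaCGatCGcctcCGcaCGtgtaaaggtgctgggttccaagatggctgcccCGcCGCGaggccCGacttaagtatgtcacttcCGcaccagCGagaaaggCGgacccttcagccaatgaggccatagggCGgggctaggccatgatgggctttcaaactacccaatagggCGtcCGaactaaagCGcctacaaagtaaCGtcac
Gfap: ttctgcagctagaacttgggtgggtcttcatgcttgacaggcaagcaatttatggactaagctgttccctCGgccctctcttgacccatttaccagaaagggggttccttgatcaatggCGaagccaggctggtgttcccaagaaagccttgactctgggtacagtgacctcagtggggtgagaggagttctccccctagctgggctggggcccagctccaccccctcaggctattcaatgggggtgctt
Ccdc47: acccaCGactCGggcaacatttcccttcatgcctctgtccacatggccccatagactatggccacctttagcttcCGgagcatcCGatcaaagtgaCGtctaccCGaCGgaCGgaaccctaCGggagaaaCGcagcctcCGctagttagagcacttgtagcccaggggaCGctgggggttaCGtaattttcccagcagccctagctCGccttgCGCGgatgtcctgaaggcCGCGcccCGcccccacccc
Parp11: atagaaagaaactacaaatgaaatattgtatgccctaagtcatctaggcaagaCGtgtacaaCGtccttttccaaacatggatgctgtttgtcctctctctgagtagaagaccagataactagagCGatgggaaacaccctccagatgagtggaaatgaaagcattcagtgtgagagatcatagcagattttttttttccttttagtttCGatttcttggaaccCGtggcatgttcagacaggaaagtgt
The stretch before Eif4a1 held 18 CG and that before Ccdc47 held 19. Gfap had 2 and Parp11 had 5.

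Chromosome 11 and distal 6 were the 2 stretches with more loops in TKO than in WT. On chromosome 11 the WT list held 5866 loops and the TKO list 9357, a ratio of 1.60 (exact 95% binomial interval 1.54 to 1.65, which covers counting error only; loops share anchors and are not independent). The lists of distal 6 held 1185 and 2062 loops, a ratio of 1.74 (1.62 to 1.87). The first 100 Mb of chromosome 6 (proximal 6) went the other way, with 1917 loops in WT and 1717 in TKO, a ratio of 0.896 (0.839 to 0.956). In the other chromosomes the ratio ran from 0.794 on chromosome 3 to 0.957 on chromosome 9. Chromosome 11 and distal 6 therefore made up 9.82% and 1.98% of the WT list but 16.1% and 3.55% of the TKO list.

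**Figure D1:**
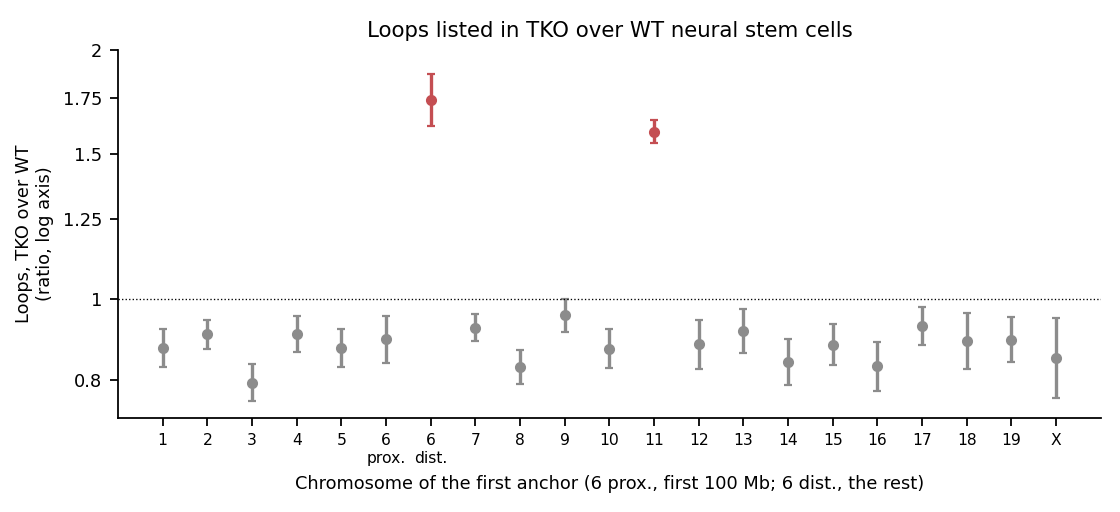
Number of loops in the TKO list over the number in the WT list (log axis) for each chromosome of the first anchor, with chromosome 6 cut at 100 Mb; bars are exact 95% binomial intervals for counting error. Chromosome 11 stands at 1.60 and distal 6 at 1.74, while every other point lies between 0.794 and 0.957.

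The excess ran the length of both stretches. Cut into windows of 10 Mb, all 18 windows of chromosome 11 and distal 6 that held at least 50 loops in the 2 lists together had a ratio of at least 1.2, against 6 of 232 windows elsewhere, whose median was 0.863. The lowest ratio was 1.21, from 10 to 20 Mb of chromosome 11 (58 and 70 loops). The highest was 2.02, from 90 to 100 Mb of the same chromosome (620 and 1251 loops). At a step of 1 Mb, 65 of 66 steps of chromosome 11 and 22 of 23 steps of distal 6 with at least 50 loops had more loops in TKO. The exceptions were the step that starts at 48 Mb of chromosome 11, with 65 and 58 loops, and the one at 122 Mb of chromosome 6, with 34 and 29.

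The change of direction on chromosome 6 lay before the 100 Mb mark that defines distal 6. From 84 to 94 Mb the lists held 449 loops in WT and 295 in TKO, a ratio of 0.657. From 94 to 100 Mb, just outside the mark, they held 47 and 88, a ratio of 1.87. Just inside it, from 100 to 110 Mb, they held 50 and 64, a ratio of 1.28. Loops are few on both sides of the mark, so the place of the change cannot be given closely. The last first anchor before the mark starts at 99724562 and the first beyond it at 100286378. The RNA of the genes there also changed direction before the mark in NSCs, over few genes: the median log2 difference was -0.18 for 20 genes at 90 to 92 Mb, 0.17 for 9 genes at 92 to 94 Mb, 0.58 for 4 genes at 94 to 96 Mb and 1.21 for 8 genes at 96 to 98 Mb. The next step, from 98 to 100 Mb, stood at 0.051 over 4 genes, with 4 loops in WT and 13 in TKO, so the rise was not steady up to the mark. The RNA and the loops did not run together everywhere: the first 10 Mb of chromosome 6 had a median of 0.60 over 34 genes in NSCs, with 60 loops in WT and 56 in TKO.

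**Figure D2:**
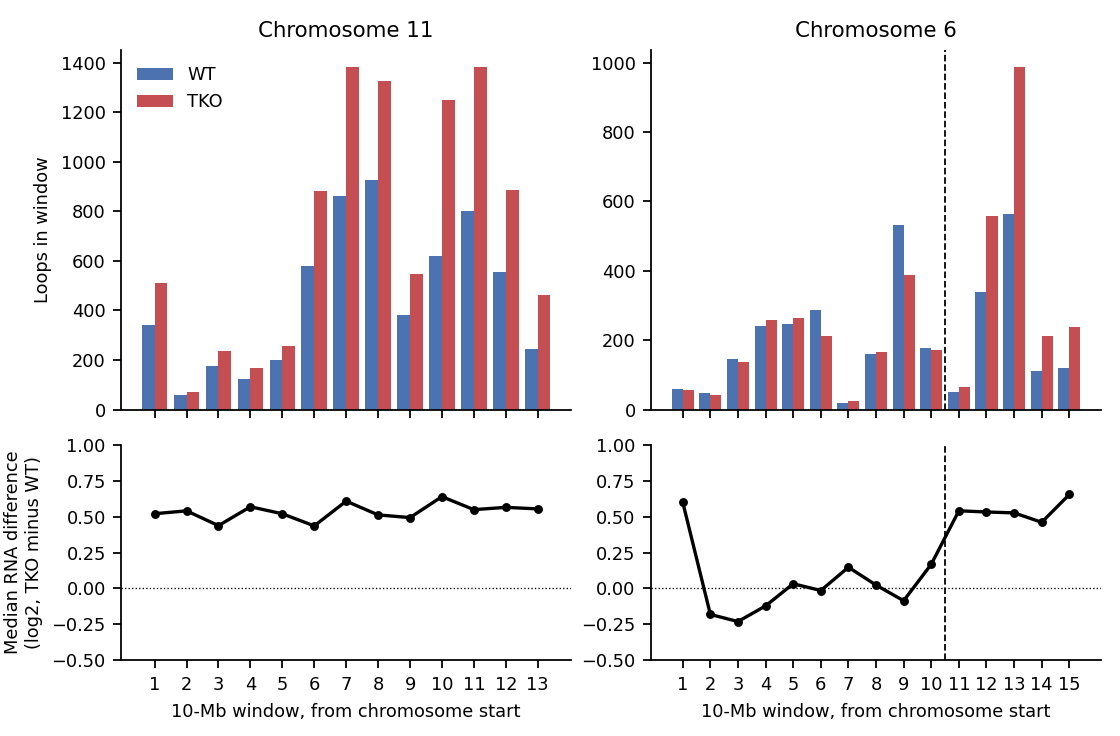
Loops per 10-Mb window in WT (blue) and TKO (red) along chromosomes 11 and 6, above, and the median log2 RNA difference (TKO minus WT, NSC libraries) of the genes tested in each window, below; windows are numbered from the start of each chromosome and the dashed line is the 100 Mb mark. TKO bars are taller in every window of chromosome 11 and in each window of chromosome 6 past the mark, and the RNA medians of those windows lie between 0.44 and 0.65; the first window of chromosome 6, at 0.60, has no excess of loops.

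Loops of every length were more numerous in TKO, with the highest ratio for short ones. On chromosome 11 loops under 100 kb numbered 1482 in WT and 2481 in TKO (ratio 1.67), those of 100 to 600 kb 3987 and 6270 (1.57), and those over 600 kb 397 and 606 (1.53). Distal 6 gave, in the same classes, 271 and 520 (1.92), 789 and 1356 (1.72), and 125 and 186 (1.49). The median distance between anchor midpoints was 189.8 kb in WT and 185.9 kb in TKO on chromosome 11, and 217.3 kb and 208.4 kb on distal 6. Elsewhere the medians were 214.0 kb and 217.3 kb. Over both stretches together TKO loops were shorter by 3.44 kb at the median, and the interval of that difference (-15.2 to 4.57 kb, from exact binomial limits of each median) takes in 0.

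The excess was larger among loops with a high score. The score is the authors' own value for each loop, at least 5 in both lists, and how it was computed is not given here. On chromosome 11 the ratio was 1.55 for scores of 5 to 6, 1.58 for 6 to 7, 1.59 for 7 to 10, 1.78 for 10 to 15 and 2.17 for 15 or more (108 and 234 loops). On distal 6 it was 1.66, 1.56, 1.88, 2.02 and 4.55 (11 and 50 loops in the last class). Elsewhere the order was the opposite, from 0.921 in the lowest class to 0.730 in the highest. Pairs of fragments that stood in both lists had a higher score in TKO for 59.0% of 2062 pairs on chromosome 11 and 61.3% of 372 on distal 6, against 46.4% of 12251 pairs elsewhere. The median difference of score in these pairs was 0.565, 0.55 and -0.17.

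Loops of these stretches were shared more often than elsewhere as a share of the WT list, and less often than on most other chromosomes as a share of the TKO list. A loop was called shared where the same 2 fragments were paired in both lists, in either order. Of the WT loops, 43.4% on chromosome 11 (exact 95% interval 42.1% to 44.6%) and 40.6% on distal 6 (37.8% to 43.4%) were shared, against at most 33.0% elsewhere, on chromosome 9. Of the TKO loops, 27.7% and 23.4% were shared, against 32.5% of all loops elsewhere. Only the X chromosome (22.5%) was below distal 6, and only it and proximal 6 (27.4%) were below chromosome 11. The highest share elsewhere was 37.0%, on chromosome 8. These shares move with the number of loops listed: when the longer list of each region was cut to the length of the shorter by score, 35.5% of WT loops of chromosome 11 and distal 6 were shared, against 31.1% elsewhere. Of the 2969 pairs of chromosome 11 in the WT list alone, 97.5% had a first anchor that also started loops in TKO, and so did 600 of the 638 of distal 6. Of the 6138 pairs in the TKO list alone, 86.7% had a first anchor that also started loops in WT, and for 51.2% both fragments were anchors somewhere in the WT list. On distal 6 these last 2 shares were 81.8% and 42.0% of 1458 pairs. Elsewhere the first-anchor share was 85.3% for pairs of the WT list alone and 88.8% for those of the TKO list alone, with both fragments in the WT list for 45.5%. Unshared TKO pairs thus started from first anchors of the WT list no more often here. Unshared TKO pairs had median distances of 211.6 kb on chromosome 11 and 229.3 kb on distal 6, against 134.1 kb and 144.5 kb for shared ones; elsewhere the medians were 253.4 kb and 159.3 kb, in the same order.

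The shared contacts of the highest score kept a similar score on chromosome 11. The first was a contact of the Dhx8 promoter (Dhx8 is an RNA helicase of splicing) with a fragment 71.9 kb away, scored 36.2 in WT and 35.6 in TKO. Next came Nudcd3 with a fragment 243.6 kb away (30.1 and 27.9), and Timm22 with the fragment that holds Glod4 and Mrm3, 161.3 kb away (29.7 and 27.8). The highest of distal 6 was Parp11 with a fragment 295.8 kb away (29.5 and 28.9). That fragment holds the start of the long noncoding RNA 9330179D12Rik and an outer end of Ccnd2. The contact between Tpi1, a glycolytic enzyme, and Grcc10, 71.9 kb apart, scored 17.9 in WT and 27.9 in TKO. Among loops of the TKO list alone, the highest on distal 6 joined the promoter of Ntf3, a neurotrophin, to a fragment 542.5 kb away with a score of 32.6. Among those of the WT list alone, the highest on chromosome 11 was a contact of Nxn, a redox regulator of Wnt signalling, 145.6 kb away with a score of 32.7. Its fragment (76396950-76402014) adjoins that of Timm22 (76402015-76407107), and its other end lies close to that of the shared Timm22 contact. Its place in the WT list alone thus rests on matching exact fragments.

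The additional loops were spread over most first anchors. Chromosome 11 had 1647 first anchors, 1376 with loops in WT and 1591 in TKO, so the number of loops per first anchor went from 4.26 to 5.88. On distal 6 it went from 3.55 to 4.99 over 334 and 413 first anchors. More loops in TKO than in WT were held by 1096 first anchors of chromosome 11 and 302 of 435 on distal 6, and fewer by 342 and 85. Among first anchors with at least 5 loops in the 2 lists together, 632 of 1127 (56.1%) on chromosome 11 and 143 of 236 (60.6%) on distal 6 had at least 1.5-fold more loops in TKO, where 31.1% of all such anchors did. At least 1.5-fold fewer were found at 132 (11.7%) and 27 (11.4%), where 34.3% of all did.

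Single first anchors differed by far more than the median. The first anchor with the most loops was that of Eif4a1 (chr11:69667964-69673007), the helicase that unwinds messenger RNA at the start of translation, with 26 loops in WT and 58 in TKO. Of the 26, 21 were found again. The largest difference, though, was at the fragment of Krtap4-7 (chr11:99643512-99648722), a keratin-associated protein of hair, with 2 loops in WT and 40 in TKO. None was shared, and the 40 reached fragments between 99353209 and 100297537, at a median distance of 297.5 kb and a median score of 6.30. Alox8, an arachidonate lipoxygenase, had 8 and 35 loops. The fragment with the start of Tbcd, a tubulin folding cofactor, had 4 and 27. The largest differences of distal 6 were at Pianp (3 and 25), a neural ligand of paired immunoglobulin-like receptors, Grcc10 (13 and 32), Lrrc23 (6 and 25), a radial spoke protein of cilia, and Ncapd2 (2 and 20), a condensin subunit. First anchors here and in the next paragraph are named by a gene that overlaps them, which need not start there. Krtap4-7, Alox8 and Ncapd2 were not picked by the rule for named genes and were chosen after their values were seen. That rule counts pairs in either direction at RefSeq starts.

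Some first anchors went against the rest. A first anchor that overlaps Kremen1, a co-receptor that blocks Wnt signalling, had 16 loops in WT and 5 in TKO. That of Git1, a GTPase activating scaffold, had 10 and 2. Pipox, a peroxisomal oxidase, had 22 and 12, and Rack1, a ribosomal scaffold, had 17 and 8. The distal 6 fragment of Jagn1 went from 11 to 5 while the fragment that ends 1 base before it, within the same gene neighbourhood, went from 0 to 16. Lrrc23 spans 2 such neighbours too, of which one went from 10 to 4 and the other from 6 to 25. The busiest distal anchor in WT, Tpi1, had 41 and 36 loops. Kremen1, Git1, Rack1 and Tpi1 were also named after their values were seen.

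**Figure D3:**
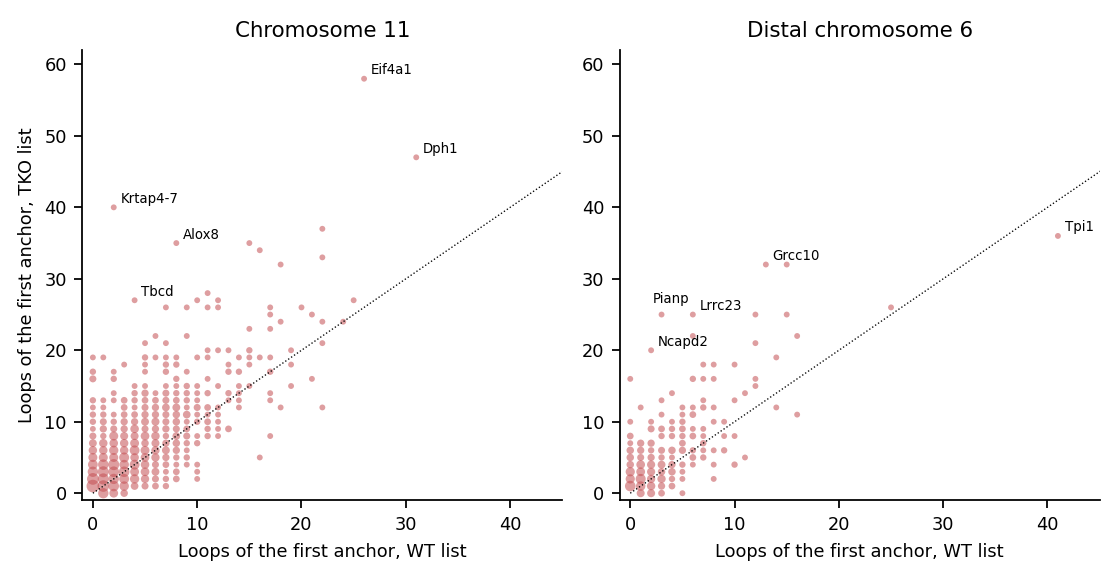
Loops of each first anchor in the WT list (x axis) and the TKO list (y axis) on chromosome 11 and distal 6; larger points stand for more anchors at the same values and the dotted line marks equal numbers. Most points lie above the line; Eif4a1 (26 and 58) and Krtap4-7 (2 and 40) lie farthest above it, and Tpi1 (41 and 36) lies below.

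A block of additional loops lay at the keratin cluster. From 99 to 100 Mb of chromosome 11 there were 170 loops in WT and 455 in TKO, a ratio of 2.68, and first anchors on a Krt or Krtap gene gave 100 and 308 of them. The 23 Krtap genes there, which encode matrix proteins of hair, had 55 loops in WT and 201 in TKO. The Krt genes, the type I keratins of epithelia, had 110 and 247. None of the Krtap genes and 6 of the Krt genes were tested in NSCs. Krtap genes are close copies of each other, so reads of 1 can be placed on another and the values of single members are uncertain. Without this step chromosome 11 still held 5696 and 8902 loops, a ratio of 1.56.

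Several other clusters of genes that are silent in most tissues had ratios above that of their chromosome. First anchors on the 83 olfactory receptor (Olfr) genes of chromosome 11 gave 43 loops in WT and 107 in TKO. The chemokine (Ccl) genes gave 13 and 39, and the Cd300 receptors of myeloid cells 7 and 26. On distal 6, the killer cell lectin-like receptor (Klr) genes gave 12 and 41 loops, and the Tas2r bitter taste receptors 14 and 36. The Clec lectin receptors (33 and 51) and the Vmn pheromone receptors (6 and 10) were not above it. On chromosome 11, neither were the Slfn genes (6 and 9) and the Hoxb genes (33 and 52). Close copies again leave single members uncertain. The families were picked after the keratin step had been seen, so these counts describe them and test nothing.

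First anchors as a whole were then sorted by the RNA of their gene in WT NSCs. Where the fragment held the annotated start of a gene below a mean normalized count of 10, or absent from the RNA table, the ratio of TKO to WT loops was 2.08 on chromosome 11 (725 and 1511 loops) and 2.15 on distal 6 (155 and 334). On chromosome 11 it was lower with more RNA, at 1.51 for counts of 10 to 100, 1.51 for 100 to 1000, 1.41 for 1000 to 5000 and 1.32 for 5000 or more (935 and 1237 loops). The 4 classes of distal 6 lay between 1.48 and 1.82, without that order. Fragments with no annotated start stood at 1.74 and 1.85. The other chromosomes showed the same order at a lower level, from 1.00 for genes under 10 or absent to 0.832 for the highest class. The share of WT loops that were shared was higher along the same classes, from 33.8% to 47.1% on chromosome 11.

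**Figure D4:**
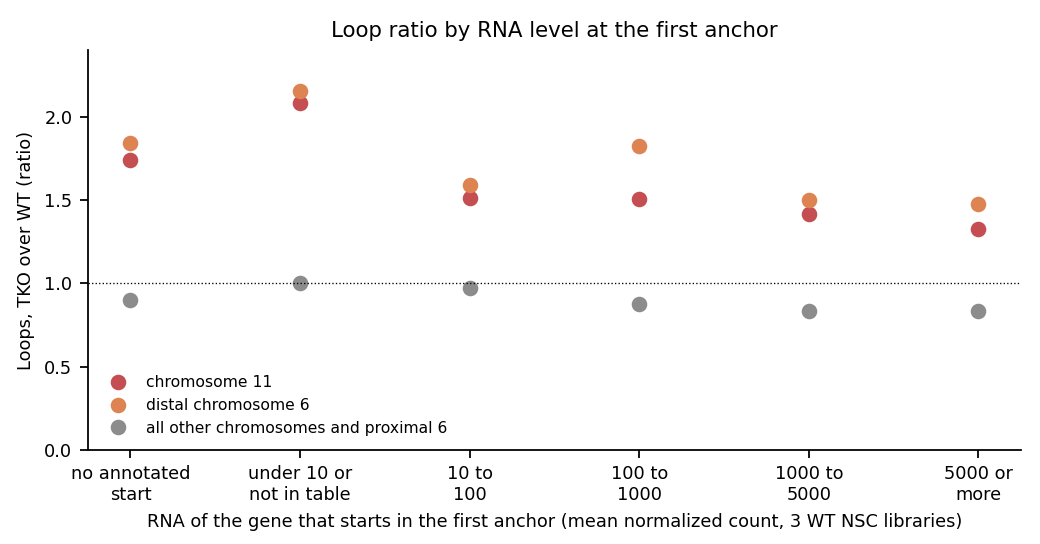
Ratio of TKO to WT loops for first anchors sorted by the RNA of the gene that starts in them (mean normalized count of the 3 WT NSC libraries). Chromosome 11 goes from 2.08 for genes under 10 or not in the table to 1.32 for the highest class, and the other chromosomes from 1.00 to 0.832.

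RNA of the same regions was higher in TKO cells as well. Whole reads recovered from the deposited values came to 42.8 to 49.1 M per NSC library. In ESC libraries the same step gave 41.0 to 44.4 M, but the recovery is unsure for 2 of them, and all these totals exceed the sequencing depth given in the labels; the reason was not tested. In NSCs, 774 of 1301 tested genes of chromosome 11 (59.5%) were higher in TKO and 79 (6.07%) lower by limma (adjusted p under 0.05), where 18.2% and 19.5% of all 17744 tested genes were. On distal 6, 174 of 320 were higher and 31 lower. The median log2 difference was 0.53 on both, against 0.0059 over all genes and -0.031 on proximal 6. It was alike in the TKO lines, at 0.53 and 0.54 on chromosome 11 and 0.52 and 0.54 on distal 6, each set against the mean of the WT lines. In ESCs the lines differed on chromosome 11, at 0.26 and 0.53, and less on distal 6, at 0.55 and 0.49. In ESCs 440 of 1282 genes of chromosome 11 were higher and 22 lower, and 131 of 305 and 5 on distal 6, where 7.29% and 7.02% of all genes were. The ESC medians were 0.39 and 0.52. Without TKO line 2, 251 genes of the 2 stretches were higher in ESCs in place of 571. The number of DNA copies of these stretches in each line was not tested, and a difference in it cannot be told apart from the genotype in the loops or the RNA. Set against the median of their own chromosome, 287 genes of the 2 stretches were higher and 332 lower in NSCs, in place of 948 and 110, and 78 and 114 in ESCs, in place of 571 and 27.

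The RNA of genes differed by similar amounts whether their promoters had more or fewer loops in TKO. On chromosome 11 the median log2 difference in NSCs was 0.56 for 633 genes with more loops in TKO at their start. It was 0.49 for 104 with an equal number and 0.49 for 193 with fewer. For 371 genes with no RefSeq start in an anchor fragment of either list it was 0.53. The 4 medians of distal 6 were 0.54, 0.50, 0.46 and 0.51, for 154, 22, 33 and 111 genes. Called higher were 67.0% of the genes with more loops on chromosome 11 and 66.3% of those with equal numbers. Of those with fewer 59.1% were, and of those with no such start 45.0%. Taken the other way, promoters of genes whose RNA fell by at least 2-fold had 95 and 145 loops on chromosome 11 and 33 and 65 on distal 6. Those of genes at least 2-fold higher had 363 and 620, and 78 and 138. Here and for single genes below, loops of a gene are the pairs, in either direction, that involve the fragment with its start. Starts are RefSeq ones, and a gene with none in an anchor fragment is counted as without loops. Some of these genes may have loops. Ccnd2 and Grin2b of distal 6 each have an outer end in an anchor fragment, yet are counted as without.

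Markers of the cell type differed between the genotypes in NSCs, and their part in the RNA values was not tested. All 8 neural stem cell markers were lower in both TKO lines, with a summed level of 380211 to 392233 in WT and 188321 to 197917 in TKO libraries, and none was at 0. Of the 6 pluripotency markers, 5 were higher in both TKO lines (summed 470.2 to 687.7 against 2431 to 4506), far below the 130582 to 166286 of ESCs in their own table. Of the 5 fibroblast markers 4 were higher and 1 lower (44160 to 55806 against 115944 to 135726). Of the 4 mesoderm or muscle markers, 1 was higher and 3 lower (93864 to 127870 against 14554 to 18974). Of 4 endoderm markers 3 were higher (993.1 to 1314 against 1390 to 2130), and of 4 neuron markers 1 was lower. In bulk samples fewer cells of a type and less RNA per cell cannot be told apart. The targeted genes still gave reads in TKO NSCs: Tet1 at 517.0 to 573.8 against 663.4 to 901.3 in WT, Tet3 at 2379 to 2597 against 4050 to 4208, and Tet2 with overlapping groups. A count over a whole gene does not show whether the deleted part was missing.

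Of the 5 genes with the largest excess of loops on chromosome 11, 4 rose in RNA and 1 fell. Set against the median of their chromosome, none of the 4 kept the call (Eif4a1 at 0.11, limma adjusted p = 0.13). Eif4a1 had 52133, 49052 and 49908 normalized counts in the WT lines and 78919 and 78055 in the TKO lines. The groups did not overlap, and the log2 difference was 0.64 (SE 0.054, limma adjusted p = 4.2e-06). In ESCs it was 0.38 (adjusted p = 0.0023). Tbcd, with 4 pairs in WT and 27 in TKO, had RNA of 3250, 3368 and 3146 in WT lines. Both TKO lines were higher, 5041 and 5113, also by 0.64 (SE 0.068, adjusted p = 2.4e-05). Cd68, a lysosomal protein of macrophages whose start lies in the fragment next to Eif4a1, had 14 and 34 pairs. Its RNA was 159.1, 312.9 and 216.6 in WT lines, 488.6 and 351.3 in TKO lines, and rose by 0.90 (SE 0.28, adjusted p = 0.024), a call lost without WT line 1, WT line 3 or TKO line 1 (adjusted p = 0.087, 0.064 and 0.18). Dusp3, a phosphatase of MAP kinases, had 21 and 39 pairs and rose by 0.31 (SE 0.099, adjusted p = 0.029), less than its chromosome's median. That call was lost without WT line 1, WT line 3 or TKO line 2 (adjusted p = 0.058, 0.11 and 0.22) and with the replicate block (0.088).

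Gfap went the other way. It encodes the intermediate filament of astrocytes, and its promoter had 12 pairs in WT and 30 in TKO, of which 8 were shared. Its RNA was low in WT NSCs, at 39.3, 82.3 and 52.4, and lower in TKO, at 13.8 and 7.81, with no overlap. The log2 difference was -2.31 (SE 0.57, limma adjusted p = 0.0078). ESC lines of WT had 34.3, 34.2 and 9.06 and those of TKO 66.0 and 48.1, a difference that did not pass the test (adjusted p = 0.20).

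Of the 5 genes with the largest deficit of loops on chromosome 11, 3 rose, 1 fell and 1 did not pass the test. Set against the median of their chromosome, none of the 3 was called higher. Ccdc47 (-0.29, limma adjusted p = 0.0067) and Zfp207 (-0.45, 3.7e-04) were then called lower. Ccdc47, an insertion factor of the endoplasmic reticulum, and Ddx42, an RNA helicase, start in the same fragment (chr11:106212480-106217540), so their loops are largely the same ones. They had 21 pairs each in WT and 4 and 5 in TKO. Ccdc47 rose by 0.24 (SE 0.064, limma adjusted p = 0.012; 0.055 and 0.051 with either TKO line left out), below the chromosome's median, and Ddx42 by 0.62 (SE 0.063, adjusted p = 1.6e-05). Rpl23, a ribosomal protein, had 22 and 13 pairs and rose by 0.66 (SE 0.067). Pipox, with 25 and 15 pairs, fell by 0.42 (SE 0.15, adjusted p = 0.046). That call was lost without any 1 of the WT lines (adjusted p = 0.098 to 0.13), with equal totals, with robust estimation and by edgeR (0.072), and without TKO line 1 the log2 difference was -0.097 (adjusted p = 0.53). Zfp207, a kinetochore-binding zinc finger protein with 22 and 13 pairs, did not pass the test at 0.08 (SE 0.063).

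Of the 5 genes with the largest excess on distal 6, 4 did not pass the test and 1 fell. Set against the median of distal 6, Parp11 (-0.34, limma adjusted p = 0.016), Chd4 (-0.43, 1.3e-04) and Grcc10 (-0.37, 0.0021) were called lower. Parp11, a mono-ADP-ribosyltransferase, had 17 pairs in WT and 37 in TKO, and its RNA was 1629, 1668 and 1656 in WT lines. The TKO lines had 1986 and 1750, a log2 difference of 0.18 (SE 0.090, limma adjusted p = 0.15). Chd4, the remodelling ATPase of the NuRD complex, had 16 and 33 pairs. WT lines had 25112, 24786 and 25661 normalized counts of it, TKO lines 26913 and 26189 (log2 difference 0.08, SE 0.053, adjusted p = 0.29). Pianp (8 and 26 pairs) and Grcc10 (21 and 36) differed by 0.12 and 0.14. Lrrc23, in contrast, had 14 and 33 pairs and RNA that fell from 799.8, 714.5 and 677.0 to 99.2 and 159.1, a log2 difference of -2.53 (SE 0.21, adjusted p = 4.3e-06).

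The 5 largest deficits on distal 6 were small, of 3 to 5 pairs, and 2 of the genes rose, 2 fell and 1 did not pass. Neither of the genes that rose kept the call when set against the median of distal 6. Sec13, a coat protein of vesicles and the nuclear pore, had 8 and 4 pairs and rose by 0.46 (SE 0.068). Jagn1, needed for neutrophil function and secretion, had 14 and 11 and rose by 0.68 (SE 0.089). Chl1, a neural cell adhesion molecule, had 5 and 1 pairs, and its RNA fell from 368.0 ± 67.6 (SD, n = 3) to 112.0 ± 15.5 (n = 2; log2 difference -1.70, SE 0.23, limma adjusted p = 1.6e-04). Cdca3, a cell division protein with 19 and 16 pairs, fell by 0.31 (SE 0.088), a call lost without WT line 1, WT line 3 or TKO line 1 (adjusted p = 0.080, 0.068 and 0.13). Creld1, with 8 and 3 pairs, did not pass at 0.08 (SE 0.084), but was called lower against the median of distal 6 (-0.43, limma adjusted p = 0.0018).

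**Figure D5:**
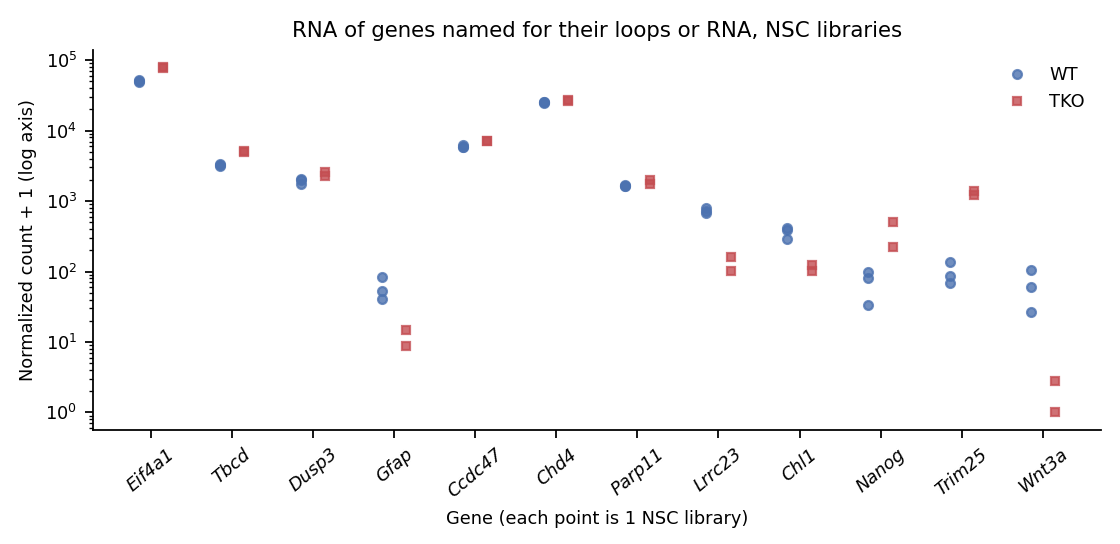
Normalized count plus 1 (log axis) of 12 genes of chromosome 11 and distal 6 in each NSC library, WT as circles and TKO as squares. Eif4a1 and Tbcd lie higher in both TKO lines, Gfap, Lrrc23, Chl1 and Wnt3a lower, and Chd4 and Parp11 close to WT.

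Among called genes with at least 1 loop, the largest RNA increases were mostly at promoters with few loops. Tex19.1, a germline gene held silent by DNA methylation, was listed at 0 in the 3 WT NSC lines and at 34.9 and 48.8 in TKO. Against a floor of 3 reads per library it was at least 12.9-fold higher (limma adjusted p = 0.0033), and it had 1 pair in each list. Trim25, a ubiquitin ligase of antiviral sensing, rose from 84.7, 136.4 and 68.0 to 1367 and 1199 (3.78, SE 0.27, adjusted p = 1.5e-06), with 1 and 2 pairs. Meioc, a meiotic RNA regulator with 5 and 10 pairs, rose by 4.32 (SE 0.43). Slfn2, an immune gene, went from 0, 10.8 and 0 to 97.3 and 64.4, and Unc45b, a myosin chaperone, from 9.30, 0 and 15.5 to 226.8 and 93.7. Both rose, but lost the call without TKO line 1 (adjusted p = 0.054 and 0.057). On distal 6, Nanog, the pluripotency factor, rose from 80.6, 32.5 and 97.1 to 508.8 and 222.5 (2.39, SE 0.48, adjusted p = 0.0022), with 2 and 3 pairs. B4galnt3 (3.62), Cracr2a (2.94), C1rl (2.61) and Ptpn6 (2.20), the last a phosphatase of blood cells with 10 and 17 pairs, rose too, Cracr2a not without TKO line 2 (adjusted p = 0.052).

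The genes with the largest decreases among called genes with a loop mostly had more loops in TKO, like most of the region. Of the 930 tested genes of chromosome 11 with a loop, 633 did. Wnt3a, a ligand of the dorsal midline of the neural tube, had 7 pairs in WT and 14 in TKO, while its RNA went from 105.4, 26.0 and 60.2 to 1.84 and 0 (log2 difference -5.06, SE 0.86, limma adjusted p = 7.4e-04). Fgf18, a growth factor, had 3 and 8 pairs and fell from 1319, 942.9 and 1004 to 221.3 and 185.4, and Sdk2, a synaptic adhesion molecule, had 0 and 4 and fell by 2.77 (SE 0.11). Lrtm2, a neuronal membrane protein on distal 6, had 2 and 8 pairs and fell by 4.03 (SE 0.33) from 483.6, 508.8 and 381.7 to 18.4 and 39.0. Slc6a4, the serotonin transporter, had 6 and 2 and fell by 3.56 (SE 0.66). Ace (2 and 4 pairs), Slco1c1 (0 and 1) and Sspn (1 and 2) fell by 2.80, 3.16 and 2.22. The call of Slco1c1 was lost by edgeR (adjusted p = 0.058) and with most single lines left out, and without TKO line 1 its difference was -1.15.

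The lists below stand beside the region, where 58.5% of tested genes were called higher and 6.79% lower. Pairs of the 2 stretches went up 1.66-fold in all, and those at tested genes 1.41-fold on chromosome 11 and 1.61-fold on distal 6. Of the Hoxb cluster, the posterior patterning genes of the neural tube, 6 of 10 members were tested in NSCs, 4 rose and none fell, with a median log2 difference of 2.67. The share that rose is near that of the chromosome (59.5%). Hoxb4 rose from 16.5, 15.2 and 33.0 to 248.0 and 134.7 (3.11, SE 0.49, limma adjusted p = 4.5e-04). Hoxb2 (3.16), Hoxb9 (2.58) and Hoxb8 (2.49, adjusted p = 0.049) rose as well, but Hoxb8 lost the call by edgeR (adjusted p = 0.076), with the replicate block (0.17) and with any line but WT line 1 left out, and Hoxb9 without WT line 2, WT line 3 or TKO line 1 (1.44, adjusted p = 0.29). Hoxb2 lost it without TKO line 2 (adjusted p = 0.11). The cluster's pairs went from 11 to 22, with Hoxb1 at 0 and 5, Hoxb4 at 4 and 5 and Hoxb8 at 7 and 12. In the same libraries T, a factor of early mesoderm, was at 626.2 to 728.6 in WT and 2557 to 3169 in TKO, while the other 3 mesoderm or muscle markers were lower in TKO. Their part was not tested.

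Of 29 neural patterning factors and signals, 28 were tested, of which 7 rose and 11 fell (median -0.35), and their pairs went from 111 to 166. Fewer rose and more fell than in the region, and the pairs went up by about as much. Otx1, a forebrain factor with no matched loops in either list, fell from 3043, 2493 and 2803 to 360.0 and 252.7 (-3.20, SE 0.15). Ebf1, also with no matched loops, rose from 208.7, 268.5 and 215.6 to 2243 and 1627 (3.05, SE 0.18). Wnt3a and Fgf18 fell as given above. Ntf3 had the largest excess of pairs, 6 and 16, with RNA that did not pass the test (-0.23, SE 0.18). Wnt9b, not in the NSC table, had 4 and 12 pairs.

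Of 12 glial and neural stem genes, 11 were tested, 5 rose and 3 fell (median 0.30), and pairs went from 45 to 70. Beside Gfap, Aldoc, the brain aldolase of astrocytes, fell by 1.29 (SE 0.12) and its pairs went from 10 to 3. Erbb2 rose by 1.00 (SE 0.063, 1 and 4 pairs) and Stat3, a driver of astrocyte genes, by 0.77 (SE 0.090, 2 and 3 pairs). Of 25 neuronal and synaptic genes, 22 were tested, 6 rose and 6 fell (median 0.061), and pairs went from 26 to 33, a smaller excess than that of the region. Of the 25, 14 had none matched to a RefSeq start. Grin2b is among them, although the fragment that holds its outer end had 10 loops in WT and 4 in TKO. Nefh, a neurofilament subunit (3.52, SE 0.51), Grm7 (2.92, SE 0.33) and Cntn3 (2.52, SE 0.20) rose, and Grin2b, an NMDA receptor subunit, fell from 687.2, 522.9 and 654.6 to 117.6 and 78.1 (-2.68, SE 0.23). Syn2, a synaptic vesicle protein, went from 0 to 5 pairs and rose by 0.79 (SE 0.20), not without TKO line 2 (adjusted p = 0.10).

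Of 14 pluripotency, germline and imprinted genes, 10 were tested, 7 rose and 2 fell (median 0.99), and pairs went from 28 to 37. Gdf3, a Nodal-related ligand with no matched loops, rose from 4.13, 0 and 1.94 to 209.4 and 76.1 (5.69, SE 0.93). Grb10, an imprinted growth suppressor with no matched loops, fell from 19452, 21469 and 18146 to 5695 and 504.5 (-3.53, SE 0.68), with a wide gap between the TKO lines. Without TKO line 2 its difference was -1.79, and with robust estimation the call was lost (adjusted p = 0.13). Commd1 had the largest difference of pairs, 15 and 20, and did not pass the test. The summed pluripotency markers given above moved the same way, and their part was not tested. Of 10 keratins, 5 were tested and 2 rose: Krt15 from 2.07, 0 and 1.94 to 314.1 and 64.4 (6.11, SE 0.96) and Krt19 by 2.28 (SE 0.25), neither with a matched loop. Their pairs went from 40 to 76, with Krt13 at 6 and 21 and Krt23 at 9 and 23, both without values in the NSC table.

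Most genes of the lists used by every dividing cell rose, as did most genes of the region. All 13 genes of cell cycle, growth and metabolism were tested, 7 rose and 2 fell (median 0.30), and pairs went from 55 to 92. Trp53, the tumour suppressor, rose from 6276, 6227 and 5996 to 11194 and 9447 (0.74, SE 0.076) with 12 and 16 pairs. Cdc6, a licensing factor of replication, had 15 and 29 pairs and rose by 0.67 (SE 0.096). Fasn, the fatty acid synthase, rose by 0.52 (SE 0.056), close to its chromosome's median, with 3 and 8 pairs. Cdkn1b, the cell cycle inhibitor p27, fell by 0.69 (SE 0.081) with 1 and 4 pairs. Of 15 chromatin regulators, all tested, 12 rose and none fell (median 0.65), and pairs went from 60 to 100. Ezh1 rose by 1.04 (SE 0.15), Rybp by 0.91 (SE 0.098), Phc1 by 0.88 (SE 0.068) and Ing4 by 0.84 (SE 0.18), while Chd4, with the largest excess of pairs, did not pass as given above. The median of all tested genes of chromosome 11 and distal 6 was 0.53, so values near it are those of the region.

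Promoters of chromosome 11 with more and with fewer loops had alike numbers of CpG. In the RefSeq table of 300 bases around each start, genes of chromosome 11 with at least 5 more loops in TKO had a median of 18 CG, those with 1 to 4 more 17, those with equal numbers 18 and those with fewer 19.5. Genes with no loop had 4. On distal 6 the medians were 17, 10, 12.5 and 10 in the same order, and 3 with no loop. At least 10 CG were held by 53.4% of genes of chromosome 11, 37.8% of distal 6 and 45.5% of those elsewhere, taking the richest start of each gene. The motif searched was CG, which reads the same on both strands. Of the promoters printed above, Eif4a1 and Ccdc47 are both rich in CG yet differ in the direction of their loops, while Gfap and Parp11 are poor in it and both had more loops in TKO.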

How the data were processed

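Promoter capture Hi-C loops came as 1 list per genotype, each loop with 2 anchor fragments and a score, the authors' own value. Per the submitters' processing notes the build is mm10; no source used here names the loop caller. The RNA-seq tables deposited by the authors, 1 per cell type, hold a non-negative signal: read counts divided by size factors, per the file headers. The submitters' processing notes name DESeq2 1.40.2, STAR 2.7.3a, Trim Galore 0.6.5 and featureCounts. In NSCs 100% of values were whole multiples of 1 step per library (tolerance 1e-06). edgeR 4.0.16 on those reads called 957 genes of chromosome 11 and distal 6 higher and 102 lower, against 948 and 110 by limma. Columns left unused numbered 0.

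Regions came from the start of the first anchor, with coordinates as deposited. TKO was compared with WT in limma 3.58.1 (trend, two-sided) on log2(value + 1) over every gene of the table whose mean reached 10. Genes with a Benjamini-Hochberg adjusted p under 0.05 were called. The pseudocount makes fold changes of low genes too small. The fit was tested on simulated data. Adjusted p-values are limma's unless edgeR is named. TKO lines with separate codes and WT samples with separate numbers were taken as replicates, and p-values measure the spread between them only. Of 19426 genes, 17657 matched GRCm38.p6 by symbol, 69 by synonym, and 1700 did not (91.2% placed). Whether counting was stranded is not stated, so overlapping genes may share reads.

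Genes named are the 5 per region and direction with the largest differences in loops among genes tested in NSCs, the 5 with the largest RNA changes among called genes with a loop, and up to 4 called members and the largest loop difference of each of 8 lists. Some genes of these lists are not reported here. Members and lists were chosen with earlier results of these data known. Intervals cover counting error only. Python 3.11.15, pandas 2.3.3 and SciPy 1.17.1 were used. Alternatives changed the score minimum, loop definition, list length, pseudocount, filter, scaling, replicates and test. Bisulfite sequencing and chromatin mark libraries were not used here.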

Additional observations from a re-analysis of the deposited data

Results flagged for a closer look

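For 7 of the named genes every TKO library lay on one side of every WT library in NSCs and on the other side in ESCs, the 2 tables having been normalized apart. The difference between cell types was not tested. In ESCs only Aldoc of these genes passed the test (limma adjusted p = 0.047), a call lost without WT line 1 or WT line 2 (0.092 and 0.15). ESC values of Gfap and Lrtm2 were low, and the NSC calls of Pipox and Cdca3 were lost with single lines left out, as given above. The log2 differences (TKO minus WT) in NSCs and ESCs were -2.31 and 1.30 for Gfap, -2.80 and 1.44 for Ace, -4.03 and 2.23 for Lrtm2 and -1.29 and 0.46 for Aldoc. Smaller ones were -0.42 and 0.28 for Pipox and -0.31 and 0.21 for Cdca3. Cntn3 went from 2.52 in NSCs to -2.11 in ESCs.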

How the results depend on the processing

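With 1 capture library per genotype, the loop values rest on no replicate. With scores of at least 7 and at least 10, the ratio of loops was 1.66 and 1.85 on chromosome 11 and 1.99 and 2.33 on distal 6. The percentage of WT loops shared over both stretches, 42.9%, was 45.8% and 48.8% at those scores, 40.3% counting each pair once, 70.0% when anchors widened by 5 kb had to overlap, 38.6% for loops of 100 to 600 kb, and 35.5% with equal numbers in each region, an alternative chosen after seeing the data. The difference of median distance was 5.85 kb at a score of at least 10 and 2.23 kb at 7, in place of -3.44. The cause was not tested. Centring each chromosome, which sets its median to 0, left 287 genes higher and 332 lower in NSCs and 78 and 114 in ESCs. Of the called genes, 600 of 1058 in NSCs and 493 of 598 in ESCs lost the call. With the sign unchanged, the NSC call was lost for Eif4a1, Tbcd, Cd68, Ddx42, Rpl23, Jagn1, Hoxb8, Hoxb9, Stat3, Syn2, Trp53, Cdc6 and Ing4. With the sign turned by centring, Ccdc47, Zfp207, Parp11, Chd4, Grcc10 and Creld1 were called lower in NSCs (limma adjusted p under 0.05). In ESCs Zfp207, Cdca3, Stat3 and Trp53 were. Centring turned the sign of 275 called genes in NSCs and 88 in ESCs. Among named genes called under either scaling it did so in NSCs for Dusp3 (-0.22), Ccdc47 (-0.29), Zfp207 (-0.45), Parp11 (-0.34), Chd4 (-0.43), Grcc10 (-0.37), Creld1 (-0.43), Sec13 (-0.049) and Fasn (-0.011), and in ESCs for Eif4a1 (-0.0099), Zfp207 (-0.34), Chd4 (-0.20), Cdca3 (-0.28), Nanog (-0.023), Stat3 (-0.29), Trp53 (-0.26) and Fasn (-0.0039). Leaving out 1 line at a time gave 812 to 910 higher and 88 to 102 lower in NSCs, and 251 to 598 higher and 17 to 26 lower in ESCs. The fewest higher were without TKO line 2 in both cell types, the 88 without WT line 1 and the 17 without WT line 3; the cause was not tested. Same-numbered lines did not deviate together, with correlations of 0.0075 and -0.021 in NSCs and 0.0061 and -8.9e-04 in ESCs. With a replicate block 932 genes were higher and 110 lower in NSCs, 491 and 24 in ESCs. WT line 3 has no TKO line of its number, so under the block it adds nothing to the difference. For Dusp3 (0.24) and Hoxb8 (1.89) in NSCs the block gave the same difference as leaving that line out, so these are not separate checks. The planned edgeR test in ESCs was not run. Limits on loops of at least 7 in the windows and on each pair counted once there were also chosen after seeing the data. All 17 and all 18 windows used then had a ratio above 1.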
